A study of Mus musculus with 8 samples.

Results

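The 10 genes described here, Nrf1, Gabpa, Gabpb1, Yy1, Sp1, Sp3, Nfya, Zbtb33, Ctcf and Tfam, were taken by name. They are 10 of 21938 protein-coding genes annotated on the assembled mouse chromosomes, and 9 of them encode factors that bind CpG-rich promoters or act with such factors, while Tfam encodes a factor of the mitochondrial genome. The measurement was ChIP-seq of ASH2L, which KMT2 methyltransferases need to methylate H3K4, in iMEF cells (immortalised mouse embryo fibroblasts). The libraries were 8, with 2 replicates each of the ASH2L ChIP without dTAG, the ASH2L ChIP after dTAG for 1 h, the input without dTAG and the input after dTAG for 1 h. dTAG is a bifunctional degrader that brings FKBP12F36V fusion proteins to an E3 ubiquitin ligase. In all groups the cells carried Ash2l alleles with a deletable exon 4 and a lentiviral construct for human ASH2L with an N-terminal FKBP12F36V tag. The study's methods describe clones that depend on this fusion protein after deletion of the endogenous alleles by Cre-ER, itself expressed from a hybrid CAGG promoter, and the labels do not say which clone was used for these libraries. The measured protein was therefore a tagged human protein in mouse cells.

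The values used here were one deposited list of 6444 ASH2L sites over all samples, of which 6428 lay on assembled chromosomes. A site is a stretch of the mm10 genome that the authors' peak caller reported. This list gave positions only, with no height, count or column per sample, so from it the replicates and the dTAG groups could not be compared, the depth was not shown and the fibroblast label could not be checked against marker genes. The study also names a list of sites that changed after dTAG, which was not analysed here. Each result below is a count, a position or a property of the sequence, and none has a replicate error or a test. The 3377 sites centred within 1 kb of a transcription start site (TSS) of any gene are called promoter sites.

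CpG islands are stretches in which the CpG dinucleotide has not been depleted, and they hold the promoters of most widely expressed genes. NRF1 binds a GC-rich palindrome and GABPA, an ETS protein that works with its partner GABPB1, binds the ETS element, and both are known for nuclear genes with mitochondrial roles, such as those of the respiratory chain and Tfam. YY1 is a zinc finger protein that activates or represses, SP1 and SP3 bind the GC box, NFYA is the DNA-contacting subunit of the CCAAT-binding trimer NF-Y, ZBTB33 (Kaiso) binds a CpG-containing palindrome and methylated DNA, and CTCF organises chromatin loops with cohesin. TFAM packages mitochondrial DNA and starts its transcription.

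The short sequences below are examples of matches of these factors' motifs inside the ASH2L sites or near them, shown because the results below refer to them. They were read 5′ to 3′ on the strand of the gene from GRCm38.p6, with the match in capitals. The ETS motif was CCGGAAGT, the YY1 motif ATGGCGGC, the SP motif CCCCGCCCC, the ZBTB33 motif TCTCGCGA, and the NFY motif CCAATCAG, CCAATCGG, CCAATGAG or CCAATGGG. The NRF1 motif was GCGCA, any base and GCGC, and the CTCF motif is given by its name alone. Each was searched on both strands, so a capital run can be the reverse complement, and no matches near these genes overlapped one another.
Nrf1, SP match inside the site, chr6:30048253-30048281, + strand: cggcctgcctGGGGCGGGGggcccgggcc
Sp3, SP match inside the site, chr2:72979364-72979392, - strand: cccgcccctcCCCCGCCCCgggagctgcc
Ctcf, YY1 match inside the site, chr8:105636865-105636894, + strand: gcggcgcggccGCCGCCATtgcccggcgcc
Ctcf, YY1 match before the site, chr8:105636534-105636563, + strand: tgcaccgcgccGCCGCCATtttgtgtccga
Gabpa, ETS match before the site, chr16:84834847-84834876, + strand: gccaccgttctACTTCCGGccctggctccg
Gabpb1, NRF1 match between its sites, chr2:126675788-126675817, - strand: ccccgctgccGCGCAGGCGCcgggcgagcc
Sp3, ETS match between its sites, chr2:72980457-72980486, - strand: agaggggcggaACTTCCGGgcgggctgtcg
Yy1, ZBTB33 match after the upstream site, chr12:108792945-108792974, + strand: ccccgcggaagTCTCGCGAggccgagccgg

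Of the 10 genes, 6 had an ASH2L site centred within 1 kb of an annotated TSS, namely Nrf1, Gabpa, Gabpb1, Yy1, Sp3 and Ctcf. Sp1, Nfya, Zbtb33 and Tfam had none. Among all protein-coding genes 14.0% had such a site (3078 of 21938). All 10 genes had a CpG island in that same window, as did 73.4% of protein-coding genes, and 19.0% of those island genes had a promoter site. These genes also had more annotated TSSs, with a median of 5 against 3 for all protein-coding genes, and 24.2% of genes with an island and at least 5 TSSs had a site. The share among the 10 genes was thus above each of these backgrounds, but the genes were chosen with earlier results known and the difference was not tested.

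With a window of 3 kb the same 6 genes had a site, against 15.4% of all protein-coding genes. The same 6 genes also had a site centred inside the gene body, against 15.8% of all protein-coding genes. The median length of the 10 genes was 29.6 kb, above the 17.4 kb of all protein-coding genes, and a longer gene can hold more sites. The 6 genes held 11 sites in all, 9 of them within 1 kb of a TSS and 9 inside a gene body. With a window of 250 bp, which was added after the data were seen, Gabpa and Yy1 dropped out and Nrf1, Gabpb1, Sp3 and Ctcf remained, against 10.2% of all protein-coding genes.

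**Figure D1:**
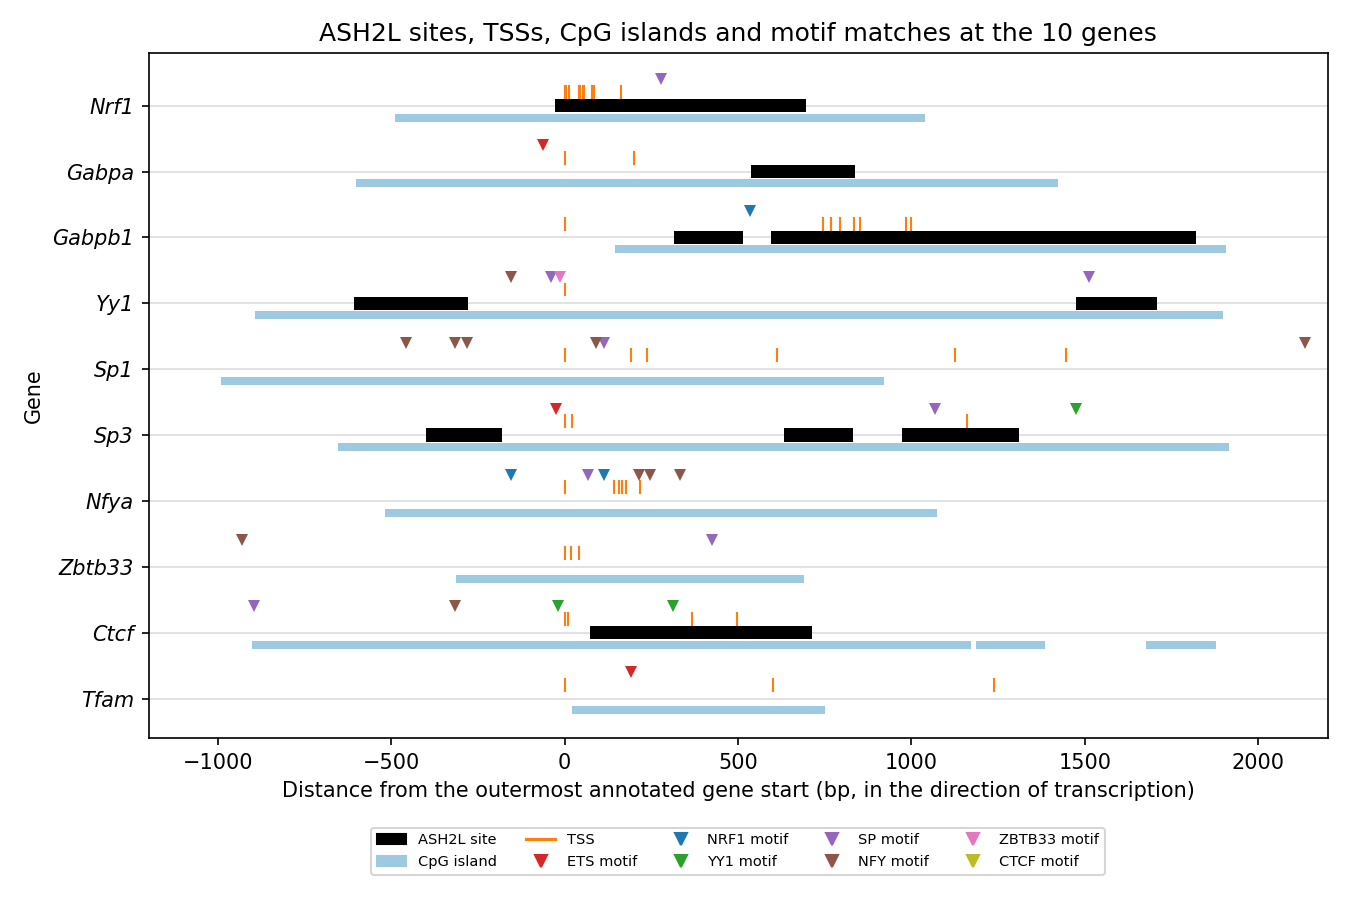
Positions in bp from the outermost annotated start of each of the 10 genes, in the direction of transcription, with ASH2L sites as black bars, computed CpG islands as blue bars, TSSs as orange ticks and motif matches as triangles. The Nrf1 and Ctcf sites, 1 of the 2 Gabpb1 sites and 1 of the 3 Sp3 sites lie over TSSs, the others in view lie beside them, and Sp1, Nfya, Zbtb33 and Tfam have islands and no site in view.

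Nrf1 (ENSMUSG00000058440.14, chr6:30047988-30153458, + strand) had a promoter site at chr6:30047961-30048683. This site was 723 bp wide, wider than 93.3% of promoter sites, and covered 10 of the gene's 16 TSSs. Its centre lay 171 bp downstream of the nearest TSS, in an untranslated exon, and its GC content of 79.8% was higher than in 95.7% of promoter sites. The only motif match inside was that of SP, and no NRF1 match occurred within 1 kb of a TSS of Nrf1. A second site at chr6:30088753-30088981 lay 40879 bp inside the gene, 1022 bp upstream of an internal TSS, and was 229 bp wide. It was the only 1 of the 11 sites outside a CpG island, with a GC content of 39.3% and an observed to expected CpG ratio of 0.23, below those of nearly all promoter sites (percentiles 1.1 and 3.85).

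Gabpa (ENSMUSG00000008976.16, chr16:84834925-84863779, + strand) had 1 site, at chr16:84835461-84835762. It was 302 bp wide, close to the median of promoter sites of 304 bp, with a GC content of 74.8% and a CpG ratio of 0.93. Its centre lay in an intron, 487 bp downstream of the nearest TSS of Gabpa, which made it the site farthest from its gene's TSS among those within 1 kb. It lay 9 bp from a TSS of Atp5j, the gene of a subunit of the mitochondrial ATP synthase, which is read from the opposite strand and starts 31 bp from a Gabpa TSS. With positions alone the site cannot be assigned to Gabpa or Atp5j. The ETS match of Gabpa lay 64 bp upstream of its first TSS and 596 bp from the site, and the site itself held none of the 7 motifs.

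Gabpb1 (ENSMUSG00000027361.15, chr2:126627442-126676337, - strand) had the widest site of the group, at chr2:126674516-126675743. It was 1228 bp wide, a width that 2.46% of promoter sites reached, and covered 7 of the gene's 9 TSSs. Its centre lay 210 bp downstream of the nearest TSS, with a GC content of 68.6% and a CpG ratio of 0.95. A second site at chr2:126675823-126676022 was 200 bp wide, the narrowest width in the list, and was centred 330 bp upstream of the nearest Gabpb1 TSS and 6 bp from a TSS of the antisense gene Gm27003. The gap between both sites was 79 bp, and the single NRF1 match within 1 kb of a TSS of Gabpb1 lay in that gap, 16 bp from the nearer site. Neither site held an ETS, NRF1 or YY1 match.

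Yy1 (ENSMUSG00000021264.12, chr12:108792973-108820148, + strand) had a promoter site at chr12:108792366-108792694, upstream of the gene. It was 329 bp wide and centred 443 bp upstream of the TSS, the farthest upstream of the 9 promoter sites. Its CpG ratio of 1.25 was higher than in 99.7% of promoter sites at a GC content of 68.1%. The gene Gm34220, read from the opposite strand, starts 213 bp from the centre of this site. A second site at chr12:108794448-108794681 was 234 bp wide and lay in an intron 1591 bp downstream of the TSS, with a GC content of 79.1% and an SP match inside. The gap of 1753 bp between both sites held the TSS, a ZBTB33 match 14 bp upstream of it, an SP match at 40 bp and an NFY match at 154 bp. No YY1 match was found within 1 kb of a TSS of Yy1 or in its sites. With the second Nrf1 site, at 1022 bp, this intronic site is 1 of 2 that fell outside the 1 kb window and inside that of 3 kb.

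Sp3 (ENSMUSG00000027109.16, chr2:72936427-72980446, - strand) had the most sites, with 3 within 1 kb of a TSS. The first, at chr2:72979136-72979474, was 339 bp wide, was centred 19 bp upstream of an alternative TSS, which it covered, and held an SP match, the motif of SP3 itself. The second, at chr2:72979614-72979813, was 200 bp wide and centred 427 bp upstream of the same TSS and 197 bp from a TSS of the antisense gene Sp3os. Its GC content of 80.5% was the highest among the sites of the 10 genes. The third, at chr2:72980626-72980846, was 221 bp wide and lay upstream of the gene, 290 bp before its first TSS. The gaps between them were 139 and 812 bp, and the ETS match of Sp3, 25 bp upstream of the first TSS, lay in the larger gap, 151 bp from a site. Sp3 and Gabpb1 were the 2 genes of the group with at least 2 promoter sites, which 2.07% of all protein-coding genes had. Those were 455 of the 3078 protein-coding genes with any promoter site.

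Ctcf (ENSMUSG00000005698.15, chr8:105636568-105682922, + strand) had 1 site, at chr8:105636640-105637282. It was 643 bp wide, wider than 90.9% of promoter sites, and was centred 26 bp downstream of a TSS, covering 2 of the gene's 5 TSSs. The site had a GC content of 73.6% and a CpG ratio of 0.93, and its centre lay in an exon of a noncoding transcript. Exons of coding transcripts of both Ctcf and the gene Agrp overlapped the site. It held a YY1 match, the only ETS, NRF1 or YY1 match in the 9 promoter sites. A second YY1 match lay 20 bp upstream of the first TSS and 88 bp from the site. No CTCF match was found within 1 kb of a TSS of Ctcf.

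The sequences of 3 whole sites are given to show the density of CpGs in sites of these genes. They are those sites of at most 300 bases that overlap no exon of a coding transcript and so hold no untranslated region, read 5′ to 3′ on the gene's strand from GRCm38.p6 with each CpG in capitals.
Gabpb1, chr2:126675823-126676022, - strand: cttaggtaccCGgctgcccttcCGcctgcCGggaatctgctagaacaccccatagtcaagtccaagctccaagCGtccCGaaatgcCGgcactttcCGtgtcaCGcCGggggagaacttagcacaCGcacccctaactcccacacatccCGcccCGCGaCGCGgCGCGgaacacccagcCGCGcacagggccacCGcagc
Yy1, chr12:108794448-108794681, + strand: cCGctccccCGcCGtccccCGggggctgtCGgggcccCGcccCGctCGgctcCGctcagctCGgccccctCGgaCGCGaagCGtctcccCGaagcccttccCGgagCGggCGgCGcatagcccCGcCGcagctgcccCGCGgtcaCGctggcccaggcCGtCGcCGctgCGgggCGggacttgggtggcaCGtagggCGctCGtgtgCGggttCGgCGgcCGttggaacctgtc
Sp3, chr2:72980626-72980846, - strand: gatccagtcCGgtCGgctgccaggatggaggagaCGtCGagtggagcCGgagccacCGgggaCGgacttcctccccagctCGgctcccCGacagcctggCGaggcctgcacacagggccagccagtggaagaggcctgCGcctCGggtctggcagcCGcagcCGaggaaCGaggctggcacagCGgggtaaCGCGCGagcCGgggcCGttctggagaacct
The Gabpb1 site held 20 CpGs in 200 bases, the Yy1 site 36 in 234 bases and the Sp3 site 21 in 221 bases. The second Nrf1 site, outside an island, held 2 CpGs in 229 bases.

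All 9 promoter sites of the group lay in a computed CpG island, also with a stricter definition of an island. Of all promoter sites, 89.0% lay in an island and 84.5% in a strict one, so a count of 9 of 9 is little above the background. The GC content of the 9 sites ranged from 66% to 80.5%, with a median of 73.6% against 65.8% for all promoter sites. Their CpG ratio ranged from 0.76 to 1.25, with a median of 0.93 against 0.867. The CpG ratios of the 9 sites lay between percentiles 32.2 and 99.7 of all promoter sites, and the Yy1 site stood above the other 8.

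**Figure D2:**
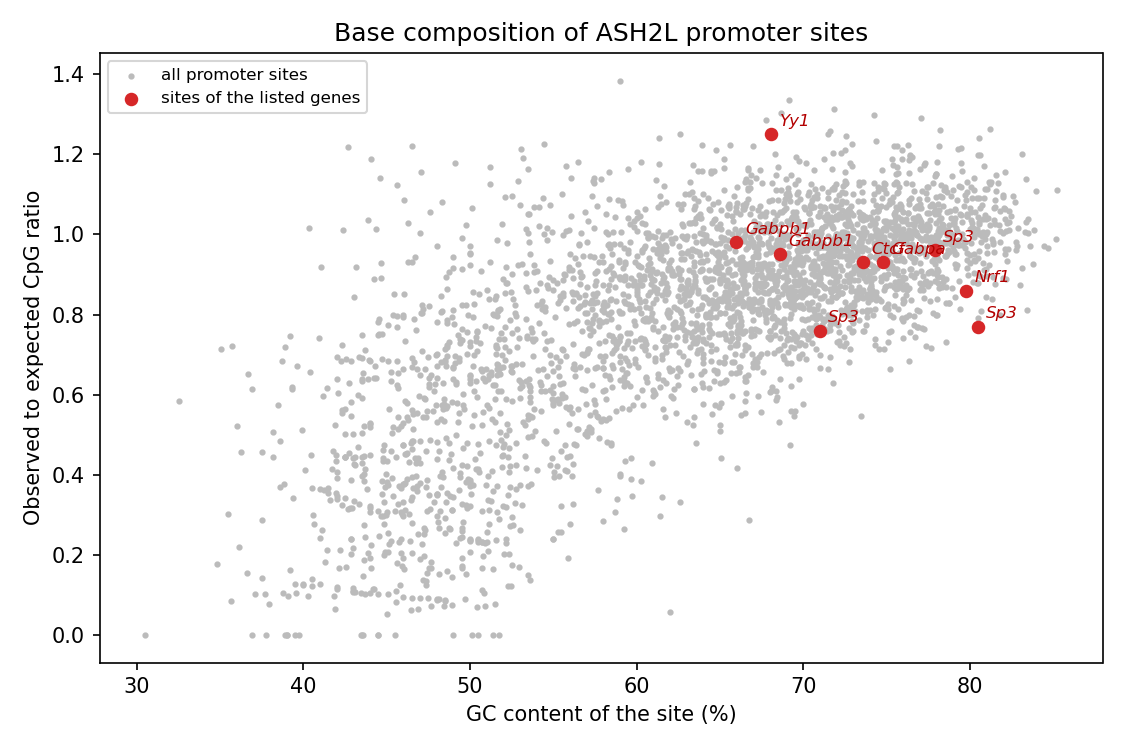
GC content in percent against the observed to expected CpG ratio for all 3377 promoter sites (grey) and the 9 promoter sites of the listed genes (red, named by gene). The 9 sites have a GC content of 66% or more, and the Yy1 site has the highest CpG ratio among them, 1.25.

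The 9 promoter sites had a median width of 329 bp, with a range from 200 to 1228 bp, against a median of 304 bp for all promoter sites. Of the 9 sites, 5 were wider than that median and 2 had the narrowest width of 200 bp, which 9.83% of all promoter sites had. The 3 sites wider than 500 bp were those of Gabpb1, Nrf1 and Ctcf, and each covered at least 2 TSSs of its gene. The list gives no height, so width is not a measure of how much ASH2L was bound.

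Measured from the nearest TSS of any gene, the centres of 6 of the 9 sites lay downstream and those of 3 upstream, close to the 66.6% of all promoter sites that lay downstream by the same measure. The median offset was 26 bp, with a range from -290 to 213 bp, against 69 bp for all promoter sites. Measured instead from the nearest TSS of the named gene, 4 lay downstream, those of Nrf1, Gabpa, Ctcf and the wide site of Gabpb1, and 5 upstream, the narrow site of Gabpb1, that of Yy1 and the 3 of Sp3. The median by that measure was -19 bp, and its sign depended on the TSSs used, since it was 197 bp with TSSs of protein-coding transcripts and 393 bp from the outermost gene start. The sites of Gabpa, Yy1, the narrow site of Gabpb1 and the second of Sp3 changed side between both measures.

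**Figure D3:**
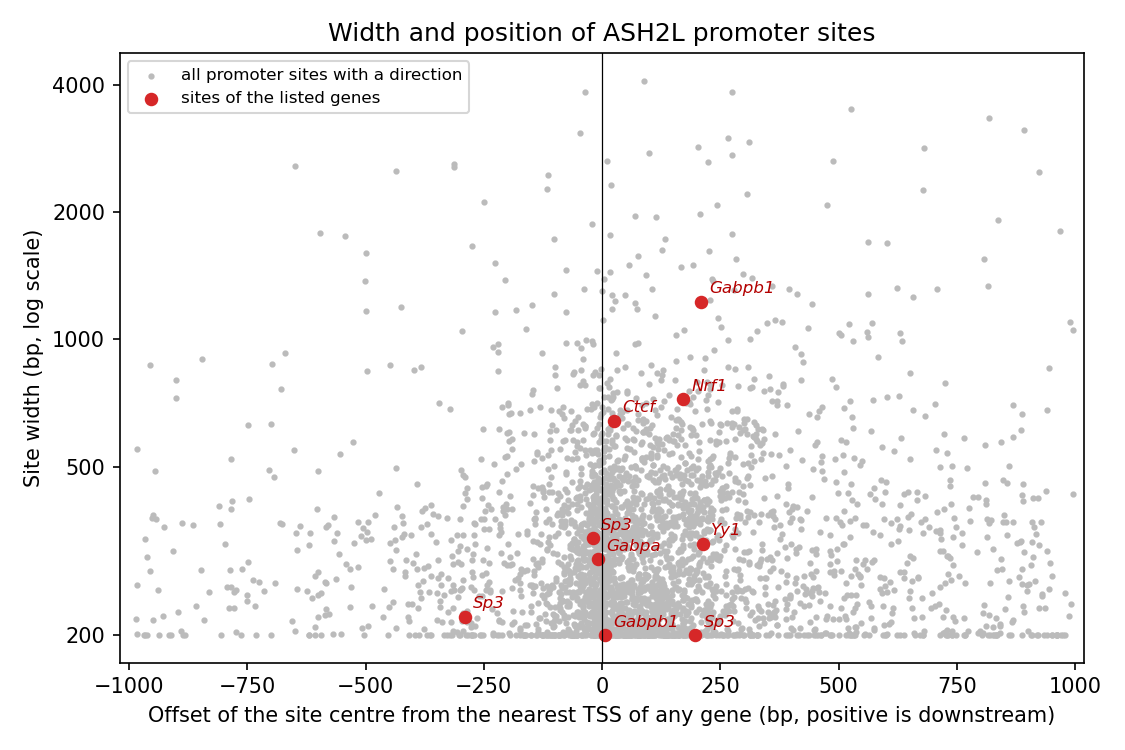
Offset of the site centre from the nearest TSS in bp (positive is downstream) against site width in bp on a log scale, for 3369 promoter sites whose direction was defined (grey) and the 9 promoter sites of the listed genes (red, named by gene), all from the nearest TSS of any gene. Gabpb1, Nrf1 and Ctcf have the 3 widest of the 9 sites, all centred downstream, and the 3 sites centred upstream are 339 bp wide or less.

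For 4 of the 9 promoter sites the nearest TSS belonged to another gene, namely Atp5j, Gm27003, Gm34220 and Sp3os at Gabpa, Gabpb1, Yy1 and Sp3. Of the 10 genes, 6 had a TSS of another gene on the opposite strand within 1 kb, which 22.7% of all protein-coding genes had. At Ctcf this gene was Gm5914 at a distance of 284 bp, and at Nfya it was Oard1, which encodes an enzyme that removes ADP-ribose derivatives from proteins, at 108 bp. Of the 6 genes with a site, 5 had such a neighbour, and of the 4 without a site 1 had one. Among all protein-coding genes 42.9% of those with a promoter site and 19.4% of those without had such a neighbour. Whether a site belongs to the gene or to its neighbour was not tested.

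The motif search asked whether the sites at these genes hold the elements that the encoded factors bind. Of the 9 promoter sites, 1 held an ETS, NRF1 or YY1 match, that of Ctcf, against 17.3% of all promoter sites. An ETS match was found in 7.43% of all promoter sites, an NRF1 match in 3.20% and a YY1 match in 8.11%, and none of the 9 sites held an ETS or NRF1 match. SP matches were found in 2 of the 9, those of Nrf1 and Sp3, against 10.3% of all promoter sites. NFY, ZBTB33 and CTCF matches were found in 2.16%, 1.01% and 0.681% of all promoter sites and in none of the 9, and 6 of the 9 held no match to any of the 7 motifs. These counts are too small to be read against the background. By width, an ETS, NRF1 or YY1 match was found in 12.7% of promoter sites under 300 bp, in 21.1% of those from 300 to under 600 bp and in 23.8% of those of 600 bp and over, classes with 3 of the 9 sites each. The share with an ETS match alone was 5.65%, 9.76% and 6.88% in these classes, so not every motif was most frequent in the widest sites.

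A match to a gene's own factor within 1 kb of a TSS was found at Gabpa (ETS), Sp1 (SP), Sp3 (SP) and Nfya (NFY, 3 matches), and that of Sp3 was the only one inside an ASH2L site. The share of all genes with such a match in that window was not computed, so this count has no background and is a description only. None was found at Nrf1, Yy1, Zbtb33 and Ctcf, which says only that these letters are not in these windows. With shorter cores of the motifs, the promoter site of Nrf1 held an NRF1 core and both sites of Gabpb1 held an ETS core. A core of ETS, NRF1 or YY1 was found in 51.5% of all promoter sites. Near the genes with a site, several matches lay just outside it, as those of Gabpb1 at 16 bp, Ctcf at 88 bp and Sp3 at 151 bp. When each site was extended by 100 bp on both sides, 3 of the 9 held an ETS, NRF1 or YY1 match, against 24.3% of all promoter sites. Both added sites were those of Gabpb1 and shared the same NRF1 match.

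In the RefSeq promoters of GRCm38.p6, which run from 250 bases before to 50 after a start, 15 entries matched the 10 genes and each gene had at least 1. An NRF1 match was found in 3 of the 15, against 4.60% of all 32851 promoters, an ETS match in 2 against 3.89%, a YY1 match in 1 against 2.24%, an SP match in 4 against 11.4% and an NFY match in 1 against 8.31%. No ZBTB33 or CTCF match was found in the 15, against 0.995% and 0.557%. The 3 entries with an NRF1 match were those of Gabpb1 and Nfya, and those of Nfya, 2 in number, overlap and share an NRF1 match and an SP match, so the 4 entries with an SP match hold 3 distinct ones. The NRF1 and ETS elements of this group were therefore found at genes with and without an ASH2L site.

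Sp1 (ENSMUSG00000001280.13, chr15:102406143-102436404, + strand), Nfya (ENSMUSG00000023994.13, chr17:48386885-48409906, - strand), Zbtb33 (ENSMUSG00000048047.3, chrX:38189793-38197046, + strand) and Tfam (ENSMUSG00000003923.14, chr10:71225464-71238280, - strand) lacked a site both in the 3 kb window and in the gene body. The nearest site lay 55.4 kb from Sp1, 106 kb from Tfam, 874 kb from Nfya and 1063 kb from Zbtb33. For the 13040 island genes without a promoter site the median of this distance was 96.3 kb, and Nfya and Zbtb33 lay at percentiles 96.5 and 97.5 of these genes. Zbtb33 lies on the X chromosome, on which 2.53% of genes (24 of 948) had a promoter site and the median distance of genes without one was 351 kb.

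At these genes without a site, motif matches within 1 kb of any annotated TSS, internal ones included, were listed from the sequence. The share of all genes with such matches in these windows was not computed. Nfya held 3 NFY, 2 NRF1 and 1 SP matches, Sp1 held 1 SP and 5 NFY matches, and Tfam held 1 SP match, 1 NFY match and an ETS match 193 bp downstream of its first TSS. Zbtb33 held 1 SP and 1 NFY match. Not all of these lay at the start of the gene. The Tfam SP and NFY matches lay in an intron, by an internal TSS 2959 bp from the gene start. An NFY match of Sp1 lay in a coding exon, and that of Zbtb33 lay 930 bp upstream of the TSS. The Nfya NRF1 matches and the Tfam ETS match are shown because these genes hold the elements with no ASH2L site in the list, read as above.
Nfya, NRF1 match upstream of the gene, chr17:48410045-48410074, - strand: gagaagaagaGCGCTTGCGCattcggcccc
Nfya, NRF1 match in an untranslated exon, chr17:48409778-48409807, - strand: ggtctcgaagGCGCTTGCGCgaaggcggtt
Tfam, ETS match in an untranslated exon, chr10:71238073-71238102, - strand: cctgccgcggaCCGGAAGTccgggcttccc
That a gene is not in the list says that no site was called there, and not that ASH2L was absent, since the list has no depth or threshold.

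Genes related to the 10 were taken from 6 lists, and the count of genes with a promoter site is set beside the backgrounds of 14.0% for all protein-coding genes and 19.0% for those with an island. Of 15 paralogues and further subunits, 3 had a site (20%), namely Zbtb38, a Kaiso-like protein, with a site of 435 bp, Gabpb2, the other partner of GABPA, with 274 bp and Nfyc, a histone-fold subunit of NF-Y, with 252 bp. The sites of Gabpb2 and Nfyc held an ETS and a YY1 match, respectively. Thus both GABP beta genes and Gabpa had a promoter site, and of the NF-Y genes only Nfyc did. The site counted for Gabpa lay 9 bp from a TSS of Atp5j and cannot be assigned to either gene. Of 25 other ETS factors, 3 had a site (12%), namely Elf2 (479 bp), Elf1 (468 bp) and Etv1 (304 bp). Of 17 KLF factors, which bind GC boxes as the SP proteins do, 2 had a site (11.8%), namely Klf6 (396 bp) and Klf5 (200 bp). These 3 shares lay near the backgrounds.

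Of 12 coactivators and partners of these factors, 6 had a site (50.0%), all 12 with an island. The widest were those of Ep300, a histone acetyltransferase, with 1579 bp, Rybp, a YY1-binding protein of Polycomb complexes, with 614 bp, its paralogue Yaf2 with 493 bp and Ino80, the ATPase of a remodelling complex that holds YY1, with 439 bp. The sites of Ep300, Rybp and Ino80 held a YY1 match and those of Ep300, Ino80 and Yaf2 an SP match, against 8.11% and 10.3% of all promoter sites. These sites were named for their width, and a YY1 match was found in 10.1% of promoter sites from 300 to under 600 bp, the class of Ino80 and Yaf2, and in 12.7% of those of 600 bp and over, the class of Ep300 and Rybp. Over the whole list an ETS, NRF1 or YY1 match was found at 4 of the 6 genes with a site, against 17.3% of all promoter sites. The count of genes pools all promoter sites of a gene, while 17.3% is a share of single sites, and no share of genes was computed. By width that share of sites was 12.7% under 300 bp, 21.1% from 300 to under 600 bp and 23.8% at 600 bp and over. Of 18 genes of mitochondrial DNA transcription and upkeep, 8 had a site (44.4%), all 18 with an island, while Tfam had none. The widest were those of Mterf3, a mitochondrial transcription termination family protein, with 753 bp, Tfb2m, which opens mitochondrial promoters together with TFAM, with 421 bp, the ribonuclease gene Rnaseh1 with 358 bp and Ssbp1, which binds single-stranded mitochondrial DNA, with 336 bp. An ETS, NRF1 or YY1 match was found at 3 of these 8 genes, against 17.3% of all promoter sites, and the site of Rnaseh1 held an ETS match.

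Of 10 genes of cohesin and its regulators, which act with CTCF, 7 had a site (70.0%), all 10 with an island. The widest were those of Nipbl, the cohesin loader, with 2263 bp, Pds5a with 497 bp, Stag1 with 465 bp and Wapl, which releases cohesin, with 295 bp. The site of Nipbl was wider than that of Ctcf (643 bp), and an ETS, NRF1 or YY1 match was found at 1 of these 7 genes, Nipbl, against the same 17.3%. Nipbl and Stag1 each had 2 promoter sites, so this count of genes is not like that share of single sites.

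**Figure D4:**
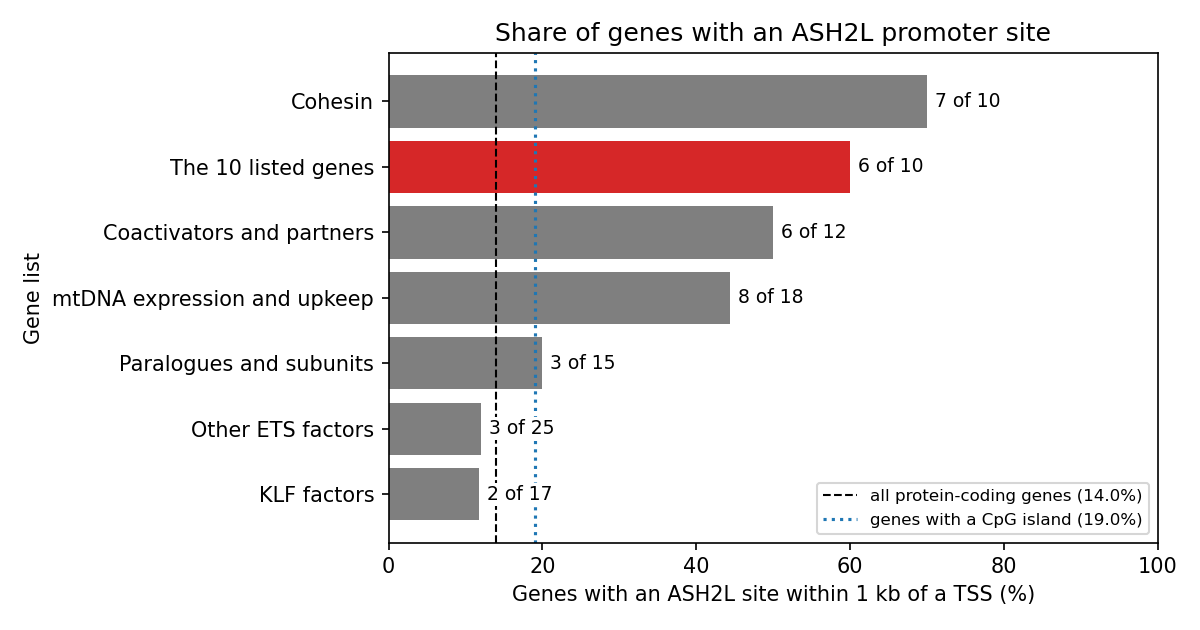
Percentage of genes with an ASH2L site within 1 kb of a TSS in the 10 listed genes (red) and 6 lists of related genes (grey), with the count beside each bar, the share among all protein-coding genes as a dashed line (14.0%) and that among genes with a CpG island as a dotted line (19.0%). The paralogues, other ETS factors and KLF factors lie near the lines, and the other lists lie above them.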

How the data were processed

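ASH2L was precipitated by the authors through the HA epitope of the fusion protein, per the study's methods, while the labels name the antibody as Ash2l. Reads were trimmed (Trim Galore), mapped to mm10 (BWA) and filtered (SAMtools) by the authors. They also merged replicates (Picard) and searched for narrow peaks (MACS2). Versions of these tools were not given in the sources used here. The deposited list holds start and end positions in base pairs. It has no value per sample, so depth, replicate error and precision are unknown, and no test of dTAG or of the replicates was run. Whether sites were called per sample or on pooled samples is not shown. A caller that merges or splits neighbouring peaks sets both widths and the number of sites per gene.

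The start column was taken as counted from 0, because the narrowest site is then exactly 200 bp, and are printed counted from 1. Sequence was GRCm38.p6, the same build, TSSs came from GENCODE mouse release 21 and promoter sequences from RefSeq (GRCm38.p6). A site was represented by its centre. Islands were stretches of at least 200 bp with more than 50% GC and a CpG ratio (observed to expected) above 0.6, or, for strict islands, at least 500 bp, 55% and 0.65. The members and lists were chosen with earlier results of these data known. Named genes were the 10 members, up to 4 genes per list with the widest promoter site and the nearest opposite-strand neighbour within 1 kb. Agrp was named as well, since an exon of it overlaps the Ctcf site. Python 3.11.15, pysam 0.24.0, pandas 2.3.3, NumPy 2.4.6 and matplotlib 3.10.9 were used, and the functions were tested on simulated data.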

Additional observations from a re-analysis of the deposited data

How the results depend on the processing

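Of 34 alternatives, 24 left a count within 1.5 times of the reported one, and the other 10 are given here, which include every median that moved by 1 bp or more. The same 6 genes had a promoter site with windows of 500 bp, 2 kb and 3 kb, with TSSs of protein-coding transcripts, the outermost gene start or RefSeq TSSs, with any base of the site counted and without the narrowest sites. With a window of 250 bp, chosen after seeing the data, 4 had one. When only sites farther than 3 kb from every TSS were counted in the gene body, 0 of the 10 genes had one, against 3.96% of all protein-coding genes, since every site of these genes has a TSS nearer than that. The median offset of -19 bp turned to 197 bp with TSSs of protein-coding transcripts, 393 bp from the outermost gene start, 120 bp when sites within 1 kb of each other were merged and, in an alternative added after seeing the data, 26 bp from the nearest TSS of any gene. The median width of 329 bp became 316, 302 and 683 bp under the first 3 of these, and merging joins neighbouring sites by construction. The count of sites with an ETS, NRF1 or YY1 match rose from 1 to 3 when sites were extended by 100 bp (24.3% of all promoter sites) and to 5 with shorter cores of these motifs (51.5%). No paired analysis was possible because the list has no value per sample, and for the same reason no replicate could be left out.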
